A study of Danio rerio with 3 samples.

Results

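The genes described here are 8 markers of the zebrafish pronephros, the embryonic kidney, and of its podocytes, the filtering cells of the glomerulus: wt1a, wt1b, nphs1, podxl, osr1, lhx1b, cdh17 and cubn. Their probes were found through the RefSeq accession that the array files give for each probe, and 13 of 43603 probes, for 7 of the 8 symbols, were matched. No probe was matched to cubn, which encodes the uptake receptor cubilin of the proximal tubule, and it is not described further. Of the 13 probes, 9 were bright enough and free of spot flags on every array and were tested, among 25066 tested probes in all. They cover 6 of the 8 genes (wt1b, nphs1, podxl, osr1, lhx1b and cdh17), against 9227 named genes with a tested probe in the whole series.

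The study set zebrafish (Danio rerio) embryos injected at the 1-cell stage with MO-grnA, a morpholino named for granulin A, against wild-type embryos without treatment, both collected at 22 hours post fertilization (hpf). Each of 3 biological replicates pooled 200 embryos a group and was hybridised to 1 Agilent array, with morphant RNA in Cy5 and wild-type RNA in Cy3 on replicates 1 and 2 and the dyes exchanged on replicate 3. The wild-type embryos received no injection and no control morpholino, so an effect of injection is part of every ratio. RNA came from whole embryos, so fewer pronephric cells and less transcript per cell cannot be told apart, and several of these genes are also transcribed outside the kidney.

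In zebrafish the pronephros arises from intermediate mesoderm, where Osr1 and LIM homeobox factors of the Lhx1 family act early. The nephron drains a glomerulus, whose podocytes carry Wt1 transcription factors, nephrin in the slit diaphragm and the sialomucin podocalyxin on their surface. The tubule behind it is an epithelium held together by cadherin-17, takes up protein through cubilin and megalin, and bears multiciliated cells that move the fluid.

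The share of non-control spots that stood clear of background ran from 65.4% to 72.0% over the arrays for morphant RNA and from 65.8% to 70.8% for wild-type RNA. The software marked 7.49% of spots on replicate 1 as uneven or as outliers, but 0.909% to 0.915% on the other two, which shared a slide that replicate 1 was not on. The grna probe, which matches the targeted gene, had log2 ratios of morphant over wild type of 0.19, 0.34 and 0.39 in replicate order (fitted 0.31, SE 0.08, adjusted p = 0.0227 in limma). A morpholino need not lower its target's transcript, so this probe does not check the labels.

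Of the 6 tested genes, 3 fell in morphants and none rose. The genes that fell were nphs1, podxl and cdh17, by 1.30- to 1.52-fold, and none of the 6 changed by as much as 2-fold in this fit, whose offset pulls dim ratios toward 0. On Agilent's deposited ratio nphs1 passed 2-fold, at -1.16 on the log2 scale. The call is limma's adjusted p under 0.05 over all tested probes, with the brightest tested probe standing for a gene. Among all 9227 named genes, 41.3% passed by the same rule, 22.0% lower and 19.3% higher. By probe, 4 of the 9 tested probes of these genes were lower and 0 higher, where 37.6% of all tested probes passed, 19.6% lower and 18.0% higher. The median log2 ratio of the 6 genes was -0.31, and 5 of them were below 0, beside a median of -0.0008 over all named genes. With replicate 1 left out the median was -0.19. With each array centred on its median in place of loess it was -0.15, beside 0.13 over all named genes. Under that centring 0 of the 6 were called, where 142 of the 9227 named genes were higher and 123 lower. With loess, 0 of the 6 were higher and 4 lower at an unadjusted p under 0.05 in limma, where 24.6% of all named genes were higher and 26.4% lower. With the mean of a gene's tested probes in place of the brightest, 2 were called lower, nphs1 and cdh17, and podxl was not.

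**Figure D1:**
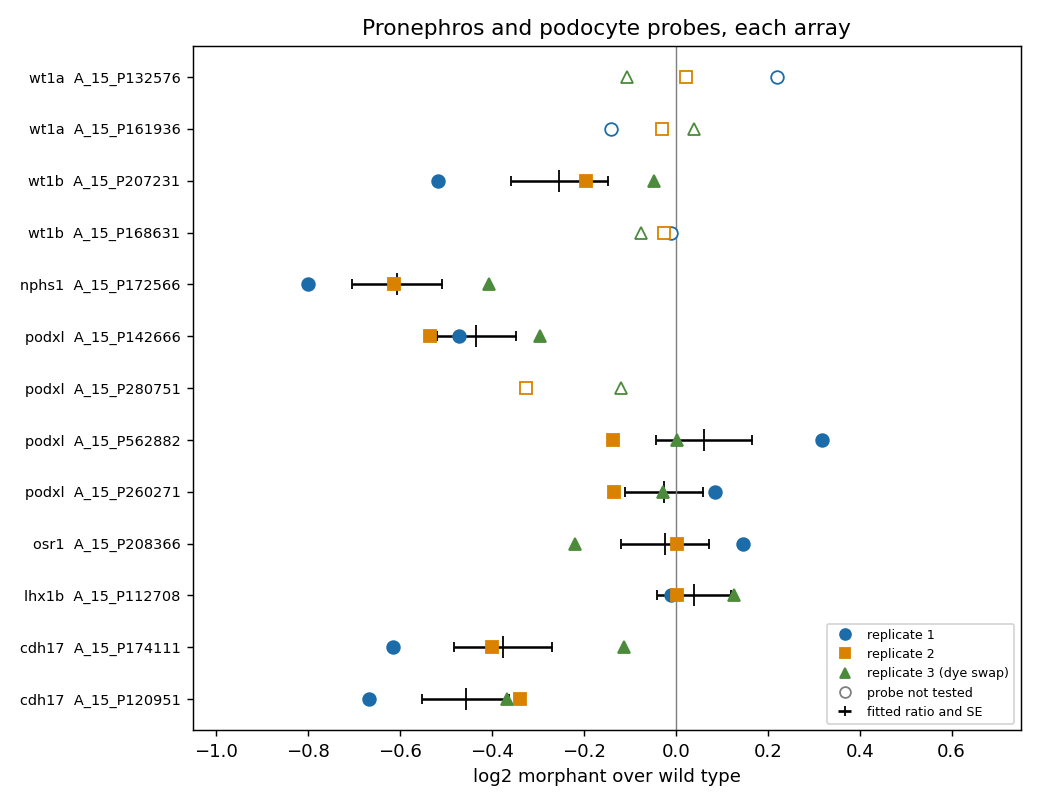
Log2 ratio of morphant over wild type (horizontal axis) for each of the 13 probes on each array, with open symbols for the 4 probes that were not tested and a black bar for the fitted ratio with its SE. All 3 arrays lie below 0 for nphs1, for both cdh17 probes and for the brightest podxl probe, while the arrays lie on both sides of 0 for osr1 and for podxl probes A_15_P562882 and A_15_P260271.

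Among the podocyte genes, nphs1 had the largest fall of the 6. It encodes nephrin, the adhesion protein that bridges podocyte foot processes. Its single probe (A_15_P172566) had normalized log2 signals of 6.99, 6.94 and 7.12 in morphants on replicates 1, 2 and 3, against 7.79, 7.56 and 7.53 in wild type. The morphant channel was the lower one on every array, with log2 ratios of -0.80, -0.61 and -0.41. The fit gave -0.61 (SE 0.10, n = 3 arrays, 95% interval -0.83 to -0.38, adjusted p = 0.00225), 1.52-fold lower in morphants. Of all named genes, 7.14% had a lower ratio. This probe was dim, and an offset of 50 added in background correction pulls dim ratios toward 0: without the offset the ratio was -0.92, and Agilent's own deposited log ratio gave -1.16.

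The gene podxl encodes podocalyxin, which is also made by blood vessel and blood cells, and its probes differed from each other. The brightest (A_15_P142666) had log2 signals of 11.82, 12.48 and 12.52 in morphants, against 12.29, 13.01 and 12.82 in wild type. The morphant channel was the lower one on every array. The normalized values of replicate 1 were below the others in both channels, so the 2 sets of values overlap. The ratios were -0.47, -0.53 and -0.30, fitted at -0.43 (SE 0.09, 95% interval -0.63 to -0.23, adjusted p = 0.00599), a 1.35-fold fall.

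The other podxl probes did not pass. Probe A_15_P562882 had ratios of 0.32, -0.14 and 0.003 (fitted 0.06, 95% interval -0.18 to 0.30, adjusted p = 0.674). Probe A_15_P260271 had ratios of 0.09, -0.13 and -0.03 (fitted -0.03, 95% interval -0.22 to 0.17, adjusted p = 0.839). The brightest probe lay below A_15_P562882 on all 3 arrays, by 0.79, 0.40 and 0.30, and below A_15_P260271 by 0.56, 0.40 and 0.27. A further probe, A_15_P280751, was marked on replicate 1 and read -0.33 and -0.12 on replicates 2 and 3. The 3 tested podxl probes span 0.50 on the log2 scale, a span reached by 18.0% of the 2677 genes with several tested probes, whose median span was 0.19. With the mean of its tested probes in place of the brightest, podxl was not called (log2 ratio -0.13, adjusted p = 0.20).

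The Wt1 genes, transcription factors needed for podocyte differentiation, gave no call. Neither wt1a probe could be tested. Probe A_15_P161936 was not well above background in either channel on any array. Probe A_15_P132576 was well above background on 1 of 3 arrays in the morphant channel and on 2 of 3 in the wild-type channel, so no fold is given for wt1a. For wt1b, probe A_15_P168631 was above background in the morphant channel on 0 arrays and in the wild-type channel on 1, and it was not tested either.

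The brighter wt1b probe (A_15_P207231) had log2 signals of 10.04, 9.91 and 10.14 in morphants, against 10.56, 10.11 and 10.18 in wild type. The morphant channel was lower on each array, with log2 ratios of -0.52, -0.19 and, on the dye-swapped array, -0.05. The fit gave -0.25 (SE 0.11, 95% interval -0.50 to -0.01), which did not pass over all tested probes (adjusted p = 0.0935). Without replicate 1 the ratio was -0.12. With median centring in place of loess the 3 ratios were -0.02, 0.14 and -0.42 (fitted -0.10), so the direction differed between arrays.

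**Figure D2:**
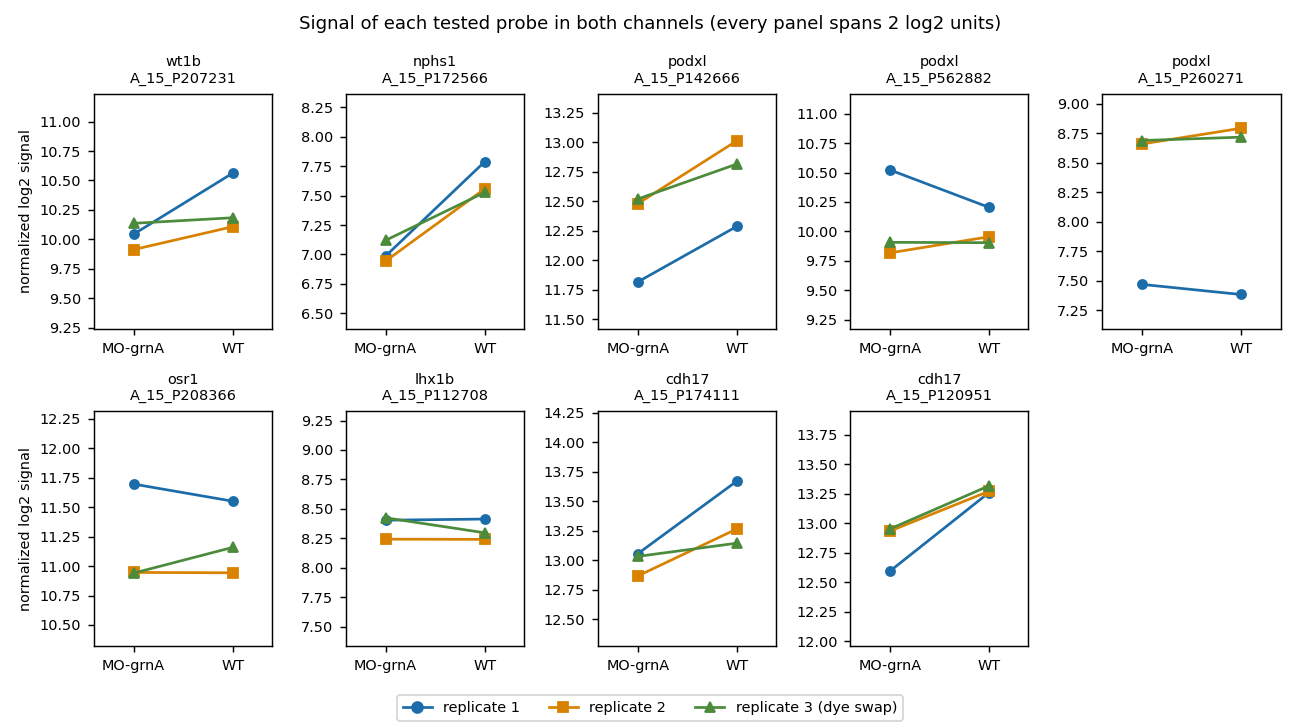
Normalized log2 signal (vertical axis) of the 9 tested probes in the morphant and wild-type channels, with a line joining the 2 channels of each array. Each panel spans 2 log2 units. For nphs1 the 3 morphant values sit between 6.94 and 7.12 and the wild-type values between 7.53 and 7.79.

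The early regulators osr1 and lhx1b gave ratios near 0. The gene osr1 encodes a zinc finger factor of intermediate mesoderm that zebrafish need for podocytes. Its probe had log2 signals of 11.70, 10.95 and 10.94 in morphants, against 11.55, 10.94 and 11.16 in wild type. The morphant channel was higher on replicate 1 and lower on replicate 3, with ratios of 0.15, 0.003 and -0.22. The fitted ratio was -0.02 (SE 0.09, adjusted p = 0.870), and its 95% interval, -0.24 to 0.20, leaves room for a small change either way. For the LIM homeobox gene lhx1b the signals were 8.40, 8.24 and 8.42 in morphants, against 8.41, 8.24 and 8.30 in wild type. These values all but coincide on replicates 1 and 2. The fitted ratio was 0.04 (SE 0.08, 95% interval -0.15 to 0.23, adjusted p = 0.734).

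Paralogues of these regulators read differently. For lhx1a, which is also transcribed in pronephric mesoderm and in the axial midline and nervous system, the ratios were -1.02, -0.55 and -0.27, and it fell by 0.61 (SE 0.14, adjusted p = 0.00932). On every array the lhx1b ratio was above that of lhx1a, by 1.01, 0.55 and 0.40. For osr2 the ratios were 0.33, 0.29 and 0.18, and it rose by 0.27 (SE 0.08, adjusted p = 0.0347), a call that ended in 7 of 11 alternative settings. The osr1 ratio lay below that of osr2 on all 3 arrays, by 0.18, 0.29 and 0.40. These differences between paralogues rest on 1 probe a gene and were not tested. Without probe sequences, whether each probe reads only its own paralogue could not be checked.

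Transcript of cdh17, the cadherin that marks the pronephric tubule and duct from early stages, fell on both of its probes. The brighter (A_15_P174111) had log2 signals of 13.05, 12.87 and 13.03 in morphants, against 13.67, 13.26 and 13.14 in wild type. The morphant channel was the lower one on every array, though by little on replicate 3. The ratios were -0.62, -0.40 and -0.11, with a fit of -0.38 (SE 0.11, 95% interval -0.62 to -0.13, adjusted p = 0.0273), a 1.30-fold fall.

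The second cdh17 probe (A_15_P120951) had signals of 12.59, 12.93 and 12.95 in morphants, against 13.26, 13.27 and 13.32 in wild type. Here too the morphant channel was lower on every array, with ratios of -0.67, -0.34 and -0.37. This probe fell by 0.46 (SE 0.09, 95% interval -0.68 to -0.24, adjusted p = 0.00722), 1.37-fold. The probes span 0.08, and 75.5% of genes with several tested probes span at least as much. The brighter probe kept its call in only 5 of 11 alternatives. Leaving out replicate 1 ended it (-0.26, adjusted p = 0.0786), as did dropping replicate 2 (-0.36, adjusted p = 0.0801). So did median centring, zero offset (-0.36, adjusted p = 0.0544), Agilent's deposited ratio (-0.35, adjusted p = 0.0743) and a dye term (-0.31, adjusted p = 0.0600). The second probe lost its call only under median centring among the 11 alternatives. Dropping the filter on dim probes, or admitting probes unmarked on 2 arrays, left the ratios of both probes as reported. Keeping marked spots moved them little, so those settings could hardly end a call.

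The calls of nphs1, podxl and cdh17 depended on the choice of scaling within each array. With each array's ratios centred on their median in place of loess, 715 of the 25066 probes passed, against 9435 with loess, and none of the 6 genes did. The nphs1 ratios were then -0.62, -0.59 and -0.45 (fitted -0.55, adjusted p = 0.279). The brightest podxl probe read 0.07, -0.13 and -0.79 (fitted -0.28, adjusted p = 0.666). The ratios of cdh17 probe A_15_P120951 were -0.08, 0.08 and -0.89 (fitted -0.29, adjusted p = 0.667). Under this scaling only the dye-swapped replicate 3 was far below 0 for these podxl and cdh17 probes, while nphs1 was below 0 on all 3 arrays. This scaling moved the median of all named genes to 0.13.

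**Figure D3:**
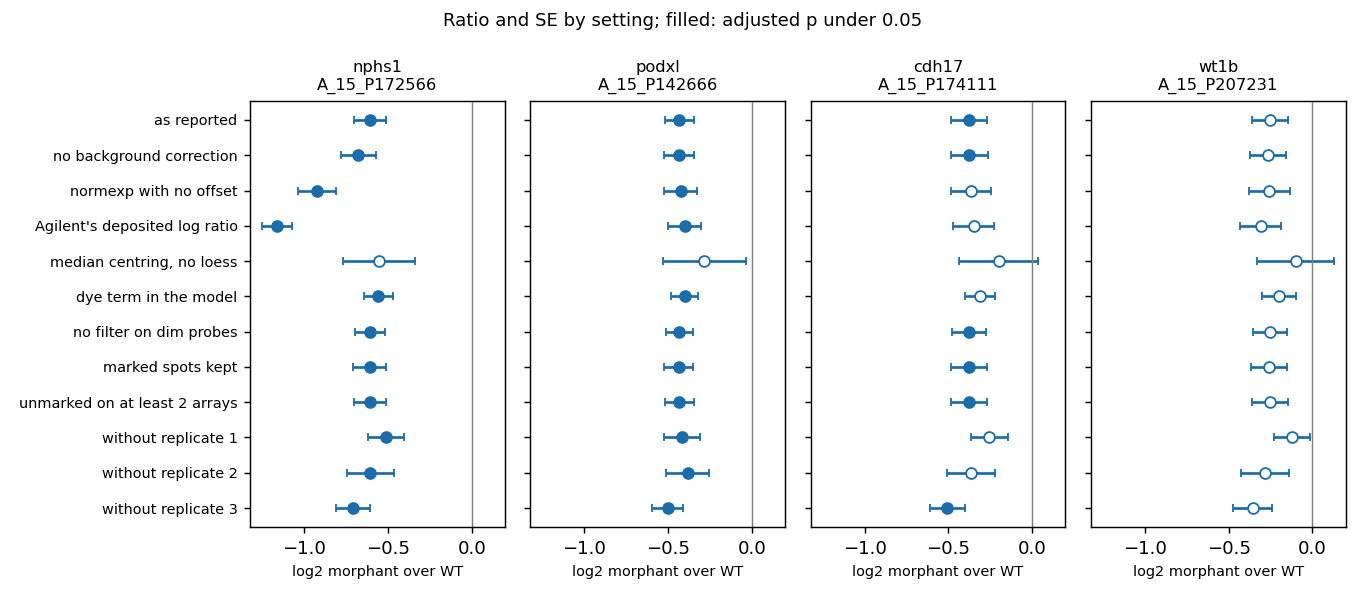
Fitted log2 ratio with its SE (horizontal axis) for nphs1, podxl, cdh17 and wt1b under the reported setting and 11 alternatives, with filled symbols where the adjusted p was under 0.05. The nphs1 ratio runs from -1.16 to -0.51 and is filled in all settings but median centring. The wt1b ratio is filled in none.

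Other genes of the pronephros were taken from 5 lists written from general knowledge of the organ. Of 128 listed symbols, invs and its older name inversin among them, 73 had a probe and 62 a tested one. Of these, 27 fell, 8 rose and 27 did not pass, where 22.0% of all named genes fell and 19.3% rose. They had a median log2 ratio of -0.19 beside -0.0008 over all named genes. With median centring, 1 fell and none rose, where 123 of the 9227 named genes fell and 142 rose. Their median was then -0.09 beside 0.13 over all genes. The lists were chosen with earlier results of these data known, and their calls are described without a test of the lists.

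Most regulators of nephron identity fell by the reported call. Of 17 tested, 10 fell, 2 rose and 5 did not pass, where 22.0% of all named genes fell and 19.3% rose. Their median was -0.36. With median centring 0 fell and 0 rose, where 123 of the 9227 named genes fell and 142 rose. The median was then -0.17 beside 0.13 over all named genes. The homeobox gene pax2a, an early regulator of intermediate mesoderm that is also active at the midbrain-hindbrain boundary and in the ear, had ratios of -0.64, -0.71 and -0.56 on its brightest probe (fitted -0.64, SE 0.08, adjusted p = 7.6e-04). Its other probes gave -0.55 and -0.40, which passed, and -0.22, which did not (adjusted p = 0.0803). The forkhead gene foxc1a, active in podocytes and in somites, fell by 0.61 (SE 0.08, adjusted p = 8.4e-04). The helix-loop-helix gene tcf21, which in mice acts in podocytes, fell by 0.56 (SE 0.08, adjusted p = 0.00169). The genes that rose were emx1 (0.42), named after its value was seen, and osr2. With replicate 3 left out, 9 fell and 0 rose, where 1465 of the 9227 named genes fell and 1090 rose.

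Other genes of the podocyte and its slit diaphragm gave calls in both directions. Of 8 tested, 2 rose, 1 fell and 5 did not pass, where 19.3% of all named genes rose and 22.0% fell. Their median was -0.08 (0.08 with median centring, where all genes had 0.13). That median was -0.14 without replicate 1 and -0.04 without replicate 2. Both genes that rose are relatives of nephrin in the immunoglobulin superfamily. The kirrel1a ratios were 0.80, 0.76 and 0.38 (fitted 0.65, SE 0.10, adjusted p = 0.00217), and its other probe read 0.39. Those of kirrel3l were 0.79, 0.30 and 0.35 (fitted 0.48, SE 0.11, adjusted p = 0.0118). On each of the 3 arrays both therefore lay above 0 while nphs1 lay below it. The non-muscle myosin gene myh9a fell by 0.27 (SE 0.08, adjusted p = 0.0375), yet a second probe of it rose by 0.46 (SE 0.10, adjusted p = 0.0106). The fall was lost on leaving out any 1 replicate, and the kirrel3l call on leaving out replicate 3.

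Transport genes of the tubule moved both ways, as did all named genes, of which 22.0% fell and 19.3% rose. In the proximal list 6 of 13 fell, 2 rose and 5 did not pass, with a median of -0.10 (0.06 with median centring, -0.15 without replicate 3). The sulfate transporter gene slc26a2 fell by 0.72 (SE 0.08, adjusted p = 5.0e-04) and the bicarbonate transporter gene slc4a4a by 0.55 (SE 0.08, adjusted p = 0.00152). The adaptor gene dab2, whose product works with megalin and cubilin in endocytosis, rose by 0.58 (SE 0.10, adjusted p = 0.00267). In the distal and duct list 4 of 13 fell, 2 rose and 7 did not pass, with a median of -0.13 (-0.04 both with median centring and without replicate 3). The chloride channel gene clcnk rose by 0.62 (SE 0.08, adjusted p = 8.8e-04), and its other probe read 0.65. The cadherin gene cdh6 fell by 0.53 (SE 0.08, adjusted p = 0.00189), while its second probe read -0.12 and did not pass.

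The largest change among the 62 tested genes of these lists was in stc1. It encodes the hormone stanniocalcin, made in zebrafish by the corpuscles of Stannius, which arise from the distal pronephros. Its log2 signals were 7.37, 7.40 and 7.47 in morphants, against 9.14, 8.80 and 8.92 in wild type. The morphant channel was lower on every array, with ratios of -1.78, -1.41 and -1.45. The fit gave -1.54 (SE 0.10, adjusted p = 2.5e-05), 2.92-fold lower in morphants. The morphant signals were dim, and the offset pulls dim ratios toward 0. Without the offset the ratio was -1.95, and Agilent's deposited log ratio gave -2.06. The fall was called under all 11 alternatives, median centring included (adjusted p = 0.0121).

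In the list of multiciliated cells and tubule cilia, 6 of 11 fell, 0 rose and 5 did not pass in limma, with a median of -0.32. Among all named genes 22.0% fell and 19.3% rose by the same call. At an unadjusted p under 0.05 in limma, 7 were lower and 0 higher, where 26.4% of all named genes were lower and 24.6% higher. With median centring 0 fell and 0 rose, where 123 of the 9227 named genes fell and 142 rose. The median was then -0.19 beside 0.13 over all named genes. Without replicate 2, or with a dye term, 4 fell, where 1524 and 1592 of the 9227 named genes did. The inversin gene invs, mutated in a human cystic kidney disease, had ratios of -0.91, -0.63 and -0.67 and fell by 0.74 (SE 0.09, adjusted p = 6.1e-04). The cilium regulators foxj1b and rfx2 had fitted ratios of -0.96 (adjusted p = 1.5e-04) and -0.51 (adjusted p = 0.00259), and a second rfx2 probe gave -0.80.

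**Figure D4:**
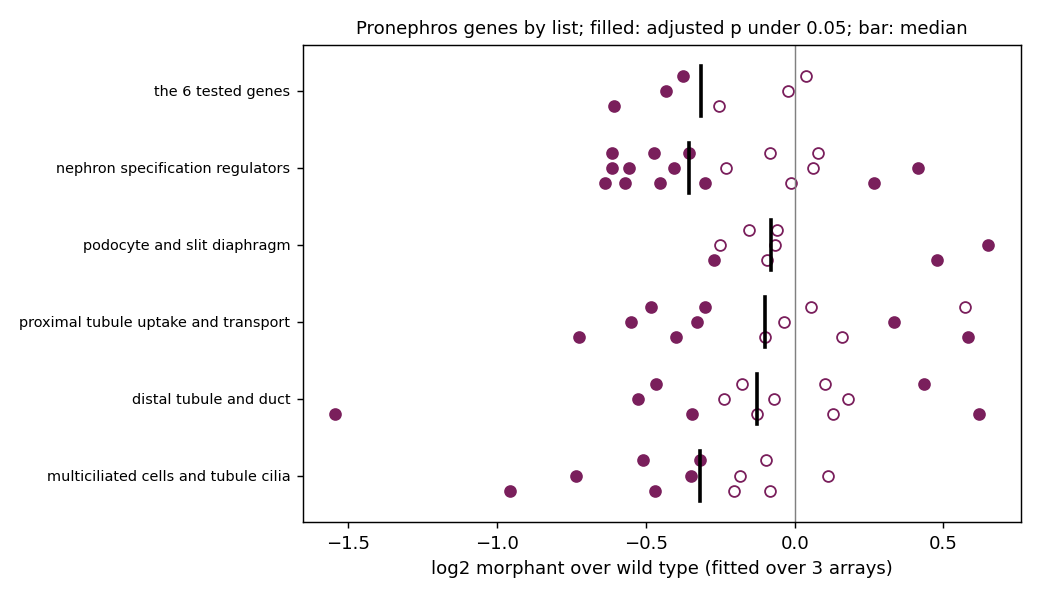
Fitted log2 ratio of morphant over wild type (horizontal axis) for the 6 tested genes and for the 5 other lists of pronephros genes, 1 symbol a gene, filled where the adjusted p was under 0.05, with a bar at each median. The symbol at -1.54 is stc1, and the podocyte list holds kirrel1a (0.65) and kirrel3l (0.48) on the higher side.

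Markers of other tissues that transcribe some of these genes moved as well, though with median centring 0 of them were higher and 0 lower in any list. With that centring 142 of the 9227 named genes were higher and 123 lower. By the reported call 22.0% of all named genes fell and 19.3% rose. Of 3 tested notochord markers all fell, with a median of -0.56 (col2a1a, col8a1a and col9a1a were not tested). Their summed linear signal ran from 33384 to 39420 in morphants and from 51470 to 56011 in wild type. Of 7 gut endoderm and liver markers 5 fell, with a median of -0.45 and sums of 61388 to 68602 in morphants and 77325 to 96711 in wild type. Of 5 hindbrain and midbrain-hindbrain markers 4 fell, with a median of -0.57 and sums of 36500 to 45171 in morphants and 56569 to 72652 in wild type. The gene mafba of this list is also counted among the regulators of nephron identity above.

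The vascular list, which bears on podxl, had 2 falls among 5 tested, a median of -0.11 and overlapping sums of 33038 to 40309 in morphants and 35179 to 43123 in wild type, with kdrl, tie1 and etv2 not tested. Neither fall passed without replicate 3. Embryonic blood markers rose in 2 of 6 and fell in none, where 19.3% of all named genes rose and 22.0% fell. The globin genes hbbe1.1, hbbe3 and hbae1.1 were not tested. Sums of the tested blood markers were 99428 to 107586 in morphants and 74631 to 90850 in wild type. With marked spots kept, 5 of 8 rose and the median log2 ratio was 0.35, against 0.10 without them. Yolk syncytial layer markers rose in 1 of 4 and fell in 1, with a median of 0.04. Their sums were 107488 to 114041 in morphants and 64687 to 77740 in wild type. A sum of linear signals gives most weight to the brightest genes, and the ratios of these 4 ran from -0.45 to 0.80. Of 5 yolk markers tested with marked spots kept, or with probes unmarked on at least 2 arrays, 0 rose. That list shares slc26a1 with the proximal list and gata6 with the gut list. No marker in these lists changed by 2-fold or more past the threshold. The part of these tissues in the ratios of podxl, lhx1a and pax2a was not tested.

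For each of the 6 genes the named genes with the most similar ratios were sought by the Euclidean distance between the log2 ratios of the 3 arrays, a description that rests on 3 values. Nearest to nphs1 were rffl (distance 0.04) and tbxas1 (0.05), with 14 genes within 0.1. For podxl they were elovl7a (0.04) and angptl6 (0.05), for cdh17 smn1 (0.03) and pdpk1a (0.03), and for wt1b lrrc15 (0.05) and tapt1b (0.05). The regulators osr1 and lhx1b lay nearest to sestd1 and slc11a2 and to traf4b and fgf13a. For lhx1b, whose ratios lie near 0, 181 genes were within 0.1. None of the nearest genes was itself one of the 8.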

How the data were processed

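RNA of morphant and wild-type embryos was measured on 3 Agilent 2-colour arrays. Per the file headers, the authors quantified the arrays with Agilent Feature Extraction 10.5.1.1, whereas 8.5.1.1 is the version in the submitters' processing notes. Each deposited file holds, per spot and dye, the median intensity and that of the local background, and the log10 of red over green. The authors' value table holds the deposited log10 ratios, with replicate 3 turned (largest difference 4.95e-06).

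Mean intensities had been planned, but median intensities were used because the files give those. Background was corrected with normexp (offset 50), which pulls dim ratios toward 0, and ratios were loess-normalized within arrays in limma 3.58.1 under R 4.3.3, with control and marked spots at weight 0. Replicate 3 was multiplied by -1, and spots of a probe were averaged. The log2 signals in the text are per channel after a further Aquantile step between arrays. Probes well above background on all 3 arrays in either channel, 28688 in all, were kept if unmarked throughout, which left 25066. No probe was saturated. Accessions were matched, without version, to a RefSeq table of assembly GRCz12tu. Coordinates are left out because the build in the files is another one.

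Log2 ratios were tested against 0 with lmFit and eBayes, two-sided, and p-values were adjusted by Benjamini and Hochberg's method across the 25066 probes. The 3 arrays limit the precision, with 2 residual degrees of freedom per probe. The fit, but not the normalization, was tested on simulated ratios. Of 100 probes changed by 1 log2 unit 73% were called, and of 100 changed by 2 units 96%. Far fewer probes were changed there than the 9435 that passed in the data, so these shares need not carry over. Smaller changes were not simulated.

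The 8 genes, the lists and the markers were chosen with earlier results of these data known. Named beyond the 8 were, by rule, the 3 genes of smallest p in each list, list genes past the threshold with 2-fold changes, paralogues, grna and the 2 nearest genes of each. Alternatives covered background correction, scaling, a dye term, filters, marked spots, probe choice and left-out arrays. Testing probes unmarked on only 2 arrays was added after the data were seen. Results that need items withheld for evaluation are not reported here.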

Additional observations from a re-analysis of the deposited data

How the results depend on the processing

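The 27 named probes were refitted under 11 alternatives. None turned its direction while called. With median centring 21 lost their call and only stc1 kept one. The wt1b, osr1 and lhx1b probes and podxl probes A_15_P562882 and A_15_P260271 had no call to lose. Apart from median centring, the calls of nphs1, the brightest podxl probe, cdh17 probe A_15_P120951 and stc1 held in 10 of 10 alternatives. For these probes, dropping the filter on dim probes or admitting probes unmarked on 2 arrays left the ratios as reported. Keeping marked spots moved them little (nphs1 from -0.606 to -0.607), so those settings could hardly end a call. The calls of cdh17 probe A_15_P174111, osr2, myh9a, kirrel3l and grna were each lost in some of the 10. Of the pronephros and podocyte markers 6 were tested, or 7 with no filter on dim probes. None of those tested was higher under any of the 11 alternatives, where 142 to 1772 of the 9227 named genes were. With a replicate left out, the number of these markers lower ran from 2 to 3, against 3 as reported. In those fits 1465 to 1789 of the 9227 named genes were lower, against 2030 as reported. With median centring the counts were 715 probes, 0 of the 6 genes lower, and 0 higher and 1 lower among the other pronephros genes. Of the 9227 named genes, 142 were then higher and 123 lower. With a replicate left out, the probes changed ran from 6187 to 8233, and the other pronephros genes from 4 to 8 higher and from 19 to 25 lower, lowest for the higher count without replicate 3. The cause of the losses with median centring was not tested. Each ratio pairs morphant and wild-type RNA on 1 array, so the reported test is itself paired. No further block was fitted, and the slide that replicates 2 and 3 shared was not modelled. Dim signal limits what can be said of wt1a, and a marked spot on replicate 1 left out podxl probe A_15_P280751.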

Other observations

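Probes of a gene did not always tell the same story among the kidney genes. Besides podxl, the cell adhesion adaptor cd2ap had tested probes that span 0.62 on the log2 scale, and the carbonic anhydrase gene ca2 had probes that span 1.1, which 2.88% of the 2677 genes with several tested probes reached. The probes of ret (0.08), emx1 (0.03) and clcnk (0.03) lay close together. The named probes of these genes were chosen for brightness, and the spans of cd2ap, ca2, ret and emx1 are given after their values were seen.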
